A study of Homo sapiens with 2 samples.

Results

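The splicing events of the SMN complex were taken from the 5 rMATS tables deposited for HEK293T cells by selecting every row whose gene symbol was SMN1, SMN2, GEMIN2, GEMIN5, GEMIN6, GEMIN7 or GEMIN8. Of 159490 events in all, 60 carried 1 of these 7 symbols. HEK293T is a human embryonic kidney line, grown here either untreated or with amiloride, a diuretic, at 300 µg/mL for 6 h, and polyA+ RNA of each condition was sequenced as 1 library. The tables number their libraries without giving a treatment. The columns of reads and inclusion levels were left aside for that reason, and nothing below says how often an exon was included or what amiloride did to it. What is described is which exons of the complex the tables treat as alternative, where they lie, and what their sequence holds. The cell line could not be checked against marker genes, since gene expression values were not analysed here.

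SMN, the survival motor neuron protein, forms a large complex with the Gemin proteins. The complex loads a ring of Sm proteins onto spliceosomal small nuclear RNAs and so builds the particles that carry out splicing. GEMIN2 binds SMN and holds Sm proteins, GEMIN5 recognizes the small nuclear RNAs, and GEMIN6, GEMIN7 and GEMIN8 form a peripheral unit. SMN is encoded by a pair of nearly identical genes on chromosome 5. Loss of SMN1 causes spinal muscular atrophy, and SMN2 compensates poorly because a base change weakens the inclusion of the exon known in the literature as exon 7. That exon is the eighth of the canonical transcript, because the second and the third exon share 1 number in the older naming. Exons are numbered below along the canonical transcript.

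The sequences that separate both SMN copies are shown first, because they decide where reads of an SMN event can be assigned to a copy. Exon 8 is 54 bases long. In the GRCh37 reference it lies on the plus strand at chr5:70247768-70247821 in SMN1 and at chr5:69372348-69372401 in SMN2. It contains the end of the coding sequence. The capital letter marks the base that differs between the copies.
SMN1 exon 8: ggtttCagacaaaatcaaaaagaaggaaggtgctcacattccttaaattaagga
SMN2 exon 8: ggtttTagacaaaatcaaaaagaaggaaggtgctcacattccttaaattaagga
The difference is C6T, counted from 1 at the first base of the exon, with the SMN1 base first. Over all 9 exons of the transcript only 1 further difference was found, G236A in the 577-base exon 9. Exons 1 to 7 were identical.

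The 5 symbols with an event differed widely in how much they contributed. GEMIN2 had 28 events, GEMIN5 had 21, SMN2 had 6, GEMIN8 had 3 and GEMIN7 had 2. For comparison, the median over the 12254 symbols in the tables was 8 events, and 1444 symbols had more than GEMIN2. SMN1 and GEMIN6 had none. The absence of GEMIN6, whose canonical transcript has 1 internal exon, says only that no event was listed under that symbol.

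By event type, 41 of the 60 were skipped exon events, out of 113456 in that table, and 17 were mutually exclusive exon events, out of 39869. A single alternative 5' splice site event (of 2620) and a single alternative 3' splice site event (of 2868) were listed. None of the 677 retained intron events belonged to the complex. Since the complex held 0.0361% of the skipped exon events and 0.0426% of the mutually exclusive ones, an absence among 677 says little.

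The 41 skipped exon events concerned 30 distinct cassette exons, each defined by chromosome, strand, start and end, out of 67154 in the table. All 30 matched an exon annotated by GENCODE at both ends, as did 99.4% of all cassette exons. All 30 also lay between an AG and a GT, as did 98.9% of all cassette exons. Their median length was 112.5 bases, with quartiles of 82.75 and 146, against 114 bases for all cassette exons. In 15 of the 30 (50%, 95% Wilson interval 33.2 to 66.8) the length was a multiple of 3. Of these 15 exons, 12 lay wholly in coding sequence, where leaving out such an exon alone keeps the reading frame. In the listed events of GEMIN2 exon 8 and GEMIN5 exon 22 a neighbouring exon was missing from both forms. Their skipping junctions removed 170 and 331 bases of the canonical transcript, which are not multiples of 3. A length that is a multiple of 3 was found for 38.8% of all cassette exons, a share inside that interval. Intervals given here cover counting error only, and exons of a gene are not independent.

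**Figure D1:**
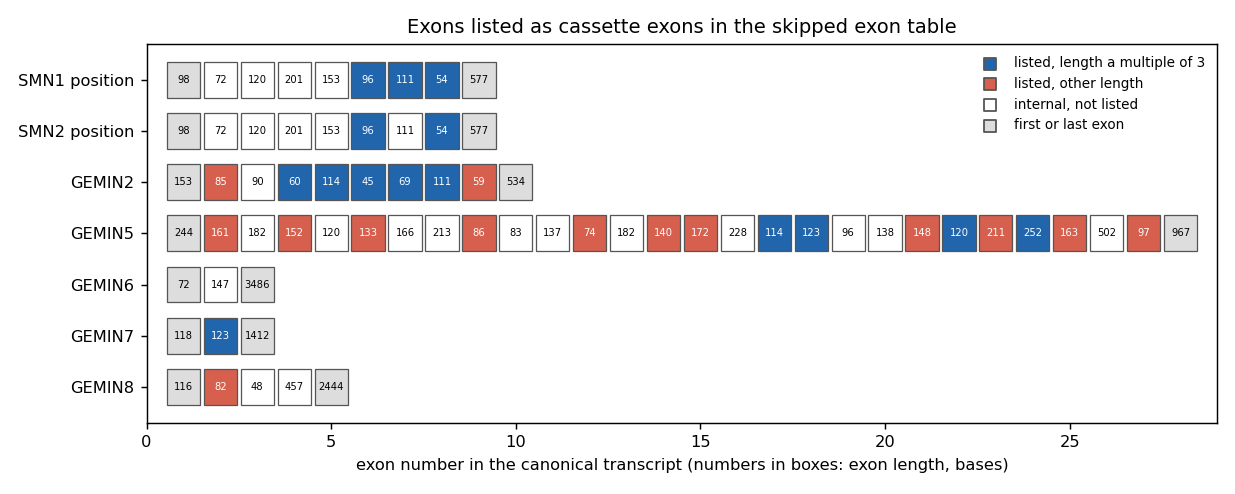
Each box is an exon of the canonical transcript of a gene (rows), placed by exon number on the x axis and with its length in bases inside. Blue and red mark exons listed as cassette exons, with lengths that are or are not a multiple of 3, white marks internal exons that were not listed and grey the first and last exon. The listed SMN exons are all blue, a run of 5 blue exons stands in GEMIN2, and 11 of the 15 listed GEMIN5 exons are red. The white SMN exons also have lengths that are multiples of 3. The longer form of GEMIN8 exon 2 is not drawn.

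The rows labelled SMN2 did not all lie in SMN2. By position, 3 of the 5 cassette exons under that symbol fell inside SMN1 as GENCODE places it (chromosome 5, 70220857 to 70249769) and 2 inside SMN2 (69345465 to 69374349). No row carried the symbol SMN1. The symbol therefore does not name the copy, and the position has to be used instead. Such a mismatch was rare. Of 63456 cassette exons whose symbol is a GENCODE gene name, 124 (0.195%) did not overlap the gene of that name on their strand. They belonged to 53 symbols, and 20 of these had exons both inside and outside the named gene, as SMN2 did.

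Both copies had a skipped exon event for exon 6 and for exon 8. Exon 6, a coding exon of 96 bases, was placed between exons 5 and 7 at 70240485 to 70240580 in SMN1 and at 69365062 to 69365157 in SMN2. Exon 8 was placed between exons 7 and 9 in either copy. Exon 7, a coding exon of 111 bases, was listed at the SMN1 position only, from 70241893 to 70242003. Its skipped exon event joined exon 5 directly to exon 7 and exon 7 to exon 8, so exon 6 was missing from both forms, and the skipping form joined exon 5 to exon 8 with 207 bases left out. That junction was not in GENCODE, whereas the skipping junctions of the other 4 SMN events were. The only mutually exclusive event of SMN, also at the SMN1 position, set exon 7 against exon 8 between exons 5 and 9. All 5 SMN cassette exons, with exons 6 and 8 counted in both copies, had lengths that are multiples of 3. The same holds for every internal exon of the SMN transcript, listed or not, so it does not set the listed exons apart.

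How far a read can be assigned to a copy was worked out from the effective lengths and the reference. The effective length of the skipping form was 125 bases in these events, which is the number of positions at which a 126-base read can span a junction. That of the inclusion form was longer by exactly the length of the exon in all 41 skipped exon events, which is the number of positions at which such a read touches the exon. For exon 8, 126 of the 179 inclusion positions (70.4%) covered a base that differs between the copies. None of its 125 skipping positions did, because the difference in exon 9 lies too far from the junction. A single read that joins exon 7 to exon 9 thus carries no base that tells SMN1 from SMN2.

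For exon 6 the copies were almost inseparable, with 9 of 221 inclusion positions (4.07%) and 9 of 125 skipping positions (7.20%) covering a difference. In the exon 7 event a difference was covered at 120 of 236 inclusion positions (50.8%) and at 120 of 125 skipping positions (96.0%), which reach into exon 8. Exons 6 and 7 each occurred at 2 places in GRCh37 as an exact match and exon 8 at 1 for each version. Reads were paired, so a mate elsewhere in the transcript could add a difference, and how the aligner placed reads that match both copies was not tested.

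GEMIN2, on chromosome 14, had the most events of the complex. Of its 8 internal exons, 7 were listed as cassette exons, exon 3 being the exception. They lay between 39584033 and 39602923 on the plus strand and were all coding. Exons 5 and 6 were in most skipped exon events, with 4 each, and each was in 6 mutually exclusive events as well. Exon 5 was also the longest, at 114 bases (39591634 to 39591747), and exon 6 the shortest, at 45 bases (39594196 to 39594240). Exon 6 was shorter than nearly all cassette exons of the table, since 3.59% were shorter still. Below, capitals mark the exon, with 20 intron bases before it and 6 after it in lower case.
GEMIN2 exon 5: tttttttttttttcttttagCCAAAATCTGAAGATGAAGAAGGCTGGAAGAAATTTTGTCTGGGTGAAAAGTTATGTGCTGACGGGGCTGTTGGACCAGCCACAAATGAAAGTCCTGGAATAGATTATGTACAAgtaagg
GEMIN2 exon 6: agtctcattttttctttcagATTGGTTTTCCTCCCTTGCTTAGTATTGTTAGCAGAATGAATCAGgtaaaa
Exons 7 and 9 are added because their splice sites stood at the ends of the range described later, which was seen before they were chosen.
GEMIN2 exon 7: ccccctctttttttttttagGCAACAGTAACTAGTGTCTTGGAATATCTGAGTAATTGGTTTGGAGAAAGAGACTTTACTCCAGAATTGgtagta
GEMIN2 exon 9: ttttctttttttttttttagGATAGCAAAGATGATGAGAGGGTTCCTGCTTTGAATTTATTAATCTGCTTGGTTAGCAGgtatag

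Exons 4 to 8 of GEMIN2, of 60, 114, 45, 69 and 111 bases, all had lengths that are multiples of 3. Leaving out any of these 5 exons, alone or together, therefore removes a multiple of 3 bases. Exon 2, of 85 bases, and exon 9, of 59 bases, did not. The 16 skipped exon events used 11 different skipping junctions, which removed between 45 and 219 bases of the canonical transcript. Of these junctions, 8 removed a multiple of 3 bases and 5 left out more than 1 exon. The longest reached from exon 3 to exon 7 and was shared by 3 events, in which exon 4, exon 5 or exon 6 was the only exon kept in the gap. Exon 8 was bypassed only together with exon 9, by the junction from exon 7 to exon 10, which removed 170 bases. GENCODE held 3 of the 11 junctions, those from exon 5 to 7, from exon 6 to 8 and from exon 8 to 10.

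**Figure D2:**
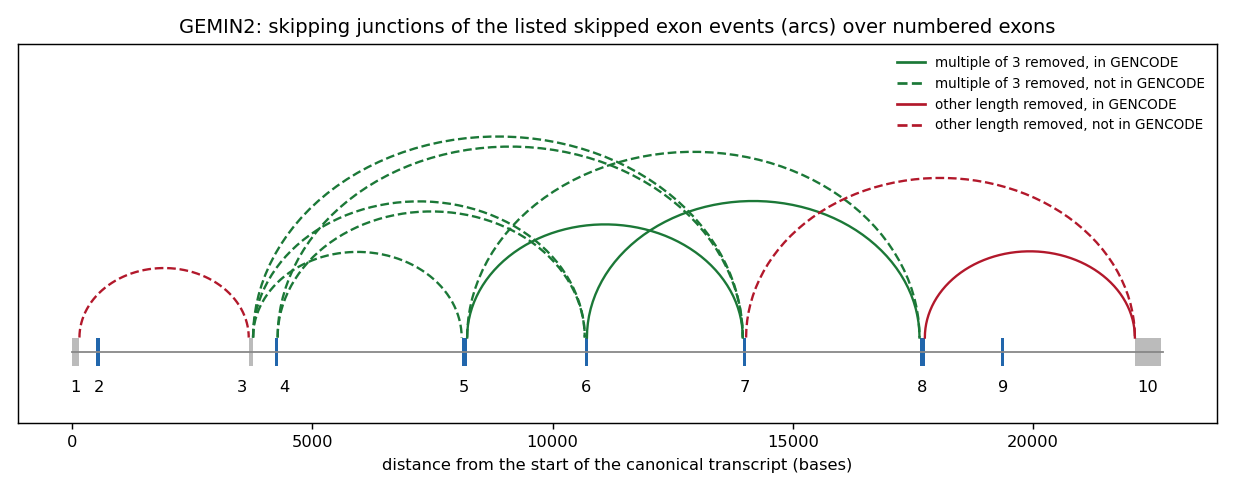
Exons of GEMIN2 are drawn as boxes along the distance from the transcript start in bases (x axis) and numbered below, blue where listed as a cassette exon. The boxes are to scale, except that exons 6 and 9 are drawn slightly wider than their length. Arcs are the 11 skipping junctions, green where a multiple of 3 bases is removed and red otherwise, solid where GENCODE has the junction and dashed where it does not. The height of an arc only follows its span. Green arcs cover exons 4 to 7, and the 3 red arcs involve exons 2 and 9.

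The 12 mutually exclusive events of GEMIN2 paired the same exons. They used 6 different pairs among exons 4 to 8, and the lengths within a pair differed by 15 to 69 bases, in 12 of 12 events by a multiple of 3. Exons 6 and 7 formed the pair in 3 events, after exon 3, exon 4 or exon 5. In every one of the 17 mutually exclusive events of the complex, both exons also stood together in an annotated transcript, as in 98.4% of all such events. Being listed as mutually exclusive thus did not mean that the annotation never joins them.

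GEMIN5 lies on the minus strand of chromosome 5. Its canonical transcript has 26 internal exons, and 15 of them were listed, from exon 2 (154316585 to 154316745) to exon 27 (154268881 to 154268977), all coding. Exon 21 (154280899 to 154281046) was the only one in 2 skipped exon events. The shortest was exon 12, of 74 bases (154297491 to 154297564), and the longest exon 24, of 252 bases (154275652 to 154275903). Exons 12 and 21, whose omission removes a number of bases that is not a multiple of 3, are shown in the notation used for GEMIN2.
GEMIN5 exon 12: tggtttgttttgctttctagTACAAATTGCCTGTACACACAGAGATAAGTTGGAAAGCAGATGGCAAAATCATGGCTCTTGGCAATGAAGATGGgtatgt
GEMIN5 exon 21: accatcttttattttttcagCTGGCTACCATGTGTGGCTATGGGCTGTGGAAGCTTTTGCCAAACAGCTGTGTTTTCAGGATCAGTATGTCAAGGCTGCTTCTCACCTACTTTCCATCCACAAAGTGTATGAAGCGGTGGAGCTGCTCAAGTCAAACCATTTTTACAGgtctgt

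Only 4 of the 15 listed GEMIN5 exons had a length that is a multiple of 3 (26.7%, 95% Wilson interval 10.9 to 52.0), namely exons 17, 18, 22 and 24, against 5 of 7 in GEMIN2 (71.4%, 35.9 to 91.8). The intervals of both genes overlap and include the 38.8% of the whole table. Of the internal GEMIN5 exons that were not listed, exons 5, 8, 16, 19 and 20 had such a length. Exons 3, 7, 10, 11, 13 and 26 did not. In GEMIN2 the unlisted exon 3 had such a length too. Whether listed exons differ from the other exons of their gene was not tested. Each of the 16 skipped exon events of GEMIN5 had a skipping junction of its own, removing 74 to 479 bases. Of these junctions 12 removed a number of bases that is not a multiple of 3. None of the 16 was in GENCODE. Over the complex, 11 of 41 skipped exon events (26.8%, 15.7 to 41.9) had an annotated skipping junction, as had 20367 of the 113456 events of the whole table (17.95%).

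The mutually exclusive events of GEMIN5 set neighbouring exons against each other. The pairs were exons 17 and 18, 21 and 22, 23 and 24, and 24 and 25. The lengths differed by a multiple of 3 only for exons 17 and 18, by 9 bases. With GEMIN2 and SMN included, 14 of 17 events of the complex (82.4%, 59.0 to 93.8) had such a difference, against 35.6% over all 39869 events. Since 12 of the 14 belong to the run of GEMIN2 exons just described, this share rests on that gene.

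GEMIN5 also held the alternative 3' splice site event of the complex, at the start of exon 5. The forms differed by 3 bases. Such a distance is common, with 718 of 2868 events of that table (25.03%). The site lies on the minus strand at chr5:154311123-154311157, and the capitals below mark both AG in question.
GEMIN5 exon 5 start: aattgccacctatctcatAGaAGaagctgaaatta
The first AG, which gives the exon of 120 bases, was annotated and the second was not. Their 3' splice site scores were 5.73 and 2.40. The score is a sum of log2 base preferences at annotated sites, so a higher value means a sequence closer to the usual one. Of all cassette exons, 15.2% scored below the first and 2.78% below the second.

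GEMIN7 and GEMIN8 had events in the 5' UTR only. In GEMIN7, on chromosome 19, exon 2 of 123 bases (45583165 to 45583287) was listed in 2 skipped exon events. Their first exon ends at 45582537 in one and at 45582635 in the other, so the skipping junctions differ in the 5' splice site, and both were annotated. This exon overlaps an antisense RNA gene, GEMIN7-AS1, and MARK4 on the same strand, and whether the counting used strand is not given in the sources used here. In GEMIN8, on the X chromosome, exon 2 was listed with 82 bases (14044259 to 14044340) and with 170 bases (14044171 to 14044340). The same choice appeared as the alternative 5' splice site event of the complex, with a stretch of 88 bases. The shorter form ends at gagGTgagg with a score of 9.62 and the longer at gagGTagta with 4.91. Capitals mark the GT at the start of the intron, and both sites were annotated.

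The splice sites of the 30 cassette exons were compared with those of all 67154 by the same scores. The median 5' splice site score was 7.07, with quartiles of 5.95 and 8.73, against 8.07 in the whole table. SMN exons 6 and 8 are counted once per copy with the same scores, and this median is the score of SMN exon 6. Medians with each SMN exon counted once were not computed. The median 3' splice site score was 11.22, with quartiles of 8.67 and 13.23, against 9.21. Counted by exon, 17 of 30 lay below the median of the table at the 5' splice site and 22 of 30 above it at the 3' splice site. The 3' splice sites were above the table median in 7 of 7 GEMIN2 exons, 10 of 15 GEMIN5 exons and 3 of 5 SMN exons. The SMN exons above it were exon 7 and exon 8 in both copies, which has the same site in each. Both forms of GEMIN8 exon 2 share a single 3' splice site, which is counted for each form.

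At the 5' splice site 3 of the 7 GEMIN2 exons were above the table median. Exon 7 had the lowest 5' splice site score of the complex, 2.24 at ttgGTagta, below which lay 1.89% of all cassette exons, while its 3' splice site scored 15.23. Exon 9 had the highest 3' splice site score, 19.44, above 99.9% of all cassette exons, with 5.94 at its 5' splice site. The printed sequences show the long run of T before both exons. Exon 5 had 17.60 at the 3' splice site and 8.31 at the 5' splice site. Exon 8 was above the table median at both, with 13.33 and 9.58. GEMIN5 exons spanned most of the range. Its 5' splice sites went from 4.41 in exon 18 to 11.16 in exon 27, and its 3' splice sites from 4.35 in exon 2 to 12.95 in exon 21.

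SMN exons 6 and 8 had the same scores in both copies, since the bases scored are identical. Exon 8 scored 6.36 at the 5' splice site ggaGTaagt, where 24.98% of all cassette exons scored lower, and 15.99 at the 3' splice site, where 98.4% did. Exon 6 was low at the 3' splice site, with 5.95, and exon 7, scored at the SMN1 position only, had 10.40 at the 5' splice site and 14.18 at the 3' splice site. The C6T difference lies outside the bases that either score reads.

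**Figure D3:**
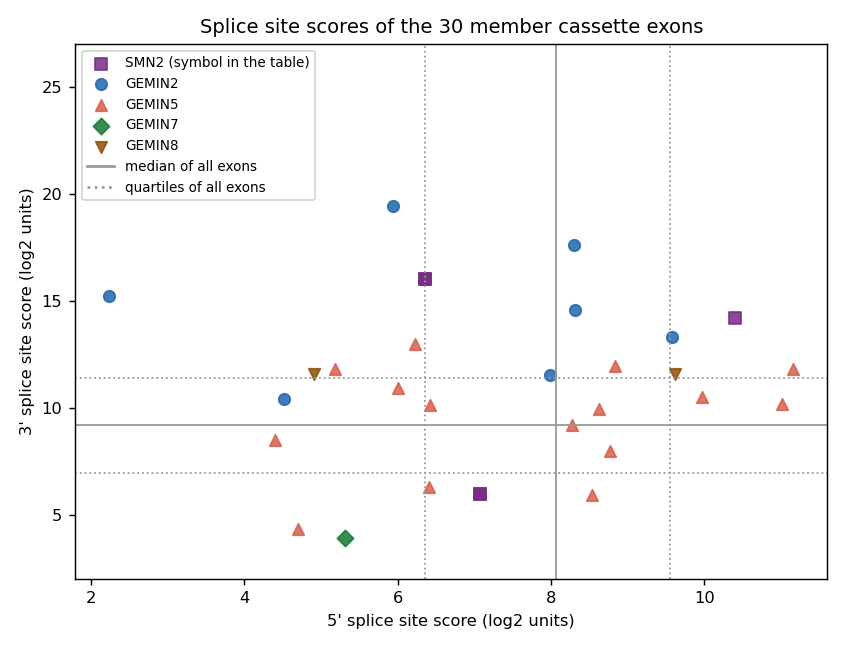
Each point is a cassette exon of the complex, with its 5' splice site score on the x axis and its 3' splice site score on the y axis, both in log2 units. Colours and shapes give the gene symbol, exons 6 and 8 of both SMN copies coincide, and grey lines mark the median (solid) and quartiles (dotted) of all cassette exons. All 7 GEMIN2 points lie above the horizontal median line.

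Distances were measured to the nearest flanking exon listed. For the 30 exons the median was 2062 bases upstream and 2584 downstream, against 2200 and 2003 in the whole table. Such a distance is longer than the intron where an event passes over a neighbouring exon. Before SMN exon 7, for instance, it had 3195 bases, because the flank listed is exon 5. SMN exon 8 stands after an intron of 5764 bases in SMN1 and 5769 in SMN2 and before an intron of 444 bases in both. The longest intron of the set, of 10077 bases, follows GEMIN7 exon 2.

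Other genes of the same pathway were taken from a list of 16 that holds the remaining subunits of the complex, the Sm proteins, the methylosome, the cap hypermethylase TGS1 and the import factors. Of these, 15 had at least 1 event, with a median of 10 and a range from 1 in SNRPG to 42 in KPNB1, which encodes importin beta. GEMIN4, a subunit of the complex, had none. DDX20, the helicase also called GEMIN3, had 10. Together they held 70 cassette exons, of which 33 (47.1%, 95% Wilson interval 35.9 to 58.7) had a length that is a multiple of 3. That is close to the share in the complex, and the interval also includes the 38.8% of the whole table. KPNB1 alone gave 10 of these 33 exons, out of its 14.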

How the data were processed

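PolyA+ RNA of 1 untreated and 1 amiloride-treated HEK293T library was sequenced with 126-base paired-end reads. The authors deposited 5 rMATS tables, and the submitters' processing notes name STAR 2.5.1, hg19 and GRCh37. The rMATS version and annotation are not given in the sources used here. Only the event coordinates and the effective lengths as deposited, in bases, were used. The 30 columns of reads and inclusion levels name no condition and were not used, so the depth per library is not given here. The p-values, FDR and inclusion level differences hold the authors' own comparison and were not used either. No test was made.

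Positions are 1-based on GRCh37, with GENCODE release 44 lifted to it. Splice site scores sum log2 base frequencies over equal frequencies at 300873 annotated 5' splice sites with GT (9 bases, 3 of them exonic) and 300290 3' splice sites with AG (23 bases, 20 of them intronic), with a pseudocount of 0.5. Functions were tested on simulated data. All member genes are named, with every SMN exon and, for each Gemin gene, the exon in most skipped exon events, the shortest, the longest and any exon absent from the annotation; exons outside this rule were chosen after their values were seen. Members, lists and alternatives were chosen with earlier results of these data known. Python 3.11.15, numpy 2.4.6, scipy 1.17.1, pysam 0.24.0 and matplotlib 3.10.9 were used.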

Additional observations from a re-analysis of the deposited data

How the results depend on the processing

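Counting skipped exon events in place of distinct exons gave 41 in place of 30, and merging overlapping exons gave 29. The share of exons with a length that is a multiple of 3 was 61.0% over events. It was 48.0% over the 25 exons that lie wholly in annotated coding sequence. Both were inside the interval of the value reported. Shares of the whole table counted in these ways are not given here, so 38.8% is not a like comparison for either. GEMIN2 exons 4 to 7, whose lengths are multiples of 3, were in 2 to 4 skipped exon events each. They weigh more in the share over events. The share of annotated exons stayed at 100%. A pseudocount of 1 left both median scores as they were. Counting each SMN exon once, in place of once per copy, was not tried. Over the 24 exons in exactly 1 skipped exon event the median 5' splice site score was 7.07, again the score of SMN exon 6. This unchanged value cannot show how far the median depends on counting that exon once per copy. The median 3' splice site score moved to 10.5. Of the 6 exons left out, 4 are GEMIN2 exons, with 3' splice site scores from 11.52 to 17.60. The planned inclusion levels per condition, and their alternative with a minimum of 20 reads, were not run, since the columns do not name the condition. No paired analysis was possible because no result comes from a test and each group is 1 library. The unknown depth limits what a missing event means: an exon that is not listed may have been covered by few reads.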
